A study of Caenorhabditis elegans with 12 samples.

Results

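The genes described here are the lysosomal lipase genes lipl-1, lipl-2, lipl-3, lipl-4 and lipl-5, the fatty acyl-CoA synthetase gene acs-2, and the carnitine palmitoyltransferase genes cpt-1, cpt-3 and cpt-4 of Caenorhabditis elegans. They were taken by gene name, and these 9 were all found among the 20222 genes listed in each library. RNA selected for poly(A) tails was sequenced from whole adults at day 1 of adulthood, kept at 20 °C on E. coli OP50 and taken for the experiment as L4 larvae. The groups were AV477, carrying dsb-2(me96); AV157, carrying spo-11(me44); TY4986, carrying htp-3(y428); and N2, the laboratory wild type, with 3 libraries each. They are called dsb-2, spo-11, htp-3 and N2 here. The labels name the replicates as biological, give no batch, and list no other allele for any strain. Each mutation was carried by a single strain, so the mutation and the rest of that strain's background cannot be told apart. The products of spo-11 and dsb-2 act in making meiotic DNA breaks, and the product of htp-3 is a protein of the meiotic chromosome axis.

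The worm stores most of its fat in the intestine, the tissue that also makes yolk for oocytes. Lysosomal lipases split stored lipid into free fatty acids inside lysosomes, and some of these enzymes are known in C. elegans for their induction in fasting or in animals that lack a germline. A freed fatty acid is activated to its acyl-CoA by an acyl-CoA synthetase, and a carnitine palmitoyltransferase then moves the acyl group onto carnitine so that it can enter the mitochondrion for beta-oxidation.

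Levels are in TPM, a unit in which reads are divided by exon length and scaled to the same total in every library. The 12 libraries held 32422219 to 42527086 mapped reads, so that a single read over 1 kilobase of exon gave 0.0293 to 0.0437 TPM. Differences are log2 fold changes on the log2(TPM + 1) scale with their standard error (SE), a scale that makes the change of low genes look smaller than it is. A gene was called higher or lower at a limma p under 0.05 after Benjamini-Hochberg adjustment over the 13650 genes that reached 1 TPM in 3 or more libraries. The median log2 fold change of these genes was 0.02 in dsb-2, 0.80 in spo-11 and 0.27 in htp-3, each against N2. With median-of-ratios scaling, which sets libraries to a common typical gene, these medians were 0.02, 0.26 and 0.10, and a call that depends on this choice is named as such. The transcript of the mutated gene was lower than in N2 in dsb-2 (log2 fold change -1.61 ± 0.21) and in htp-3 (-2.82 ± 0.21). It was not called in spo-11 (0.16 ± 0.26, limma adjusted p = 0.569), but was called lower there with median-of-ratios scaling (-0.52, adjusted p = 0.0224). In that strain and scaling the unmutated dsb-2 and htp-3 transcripts fell more (-1.22 and -1.87). The spo-11 transcript therefore does not check that label.

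The counts of called genes among the 9 differed between the 3 mutant strains, and so did the shares of all genes tested. In spo-11, 8 of the 9 genes were called higher than in N2 and lipl-4 was called lower, against 55.6% and 22.1% of all genes tested that were called higher and lower. In htp-3, 5 of the 9 were called higher, lipl-1, lipl-2, lipl-3, lipl-5 and cpt-4, and 0 lower, against 39.5% and 19.7% of all genes. In dsb-2 limma called 0 of the 9 higher and 0 lower, against 0.190% and 0.0733% of all genes. By limma, cpt-1 alone had an unadjusted p under 0.05 (0.0287). limma-voom on rebuilt reads also called 0 of the 9 in dsb-2 and 0 lower in htp-3. The median log2 fold change of the 9 genes was 0.14 in dsb-2, 2.71 in spo-11 and 0.86 in htp-3, beside the medians of all genes given above. With median-of-ratios scaling these medians were 0.15, 2.02 and 0.51. The calls were then 6 higher and 1 lower in spo-11, 4 and 0 in htp-3, and 0 and 0 in dsb-2. Of all 13650 genes, 6304 were then higher and 5181 lower in spo-11, 4381 and 4555 in htp-3, and 33 and 12 in dsb-2. The comparisons share the N2 libraries. All 9 genes passed the minimum of 1 TPM, but lipl-1, lipl-2 and lipl-3 reached it only in spo-11 and htp-3 libraries and cpt-3 only in spo-11 libraries. With no minimum the counts of called genes among the 9 were the same, 8 and 1 in spo-11, 5 and 0 in htp-3 and 0 and 0 in dsb-2. Of the 19605 genes then tested, 54.2% were higher and 15.3% lower in spo-11. In htp-3 these shares were 29.6% and 12.6%, and in dsb-2 0.122% and 0.0204%.

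**Figure D1:**
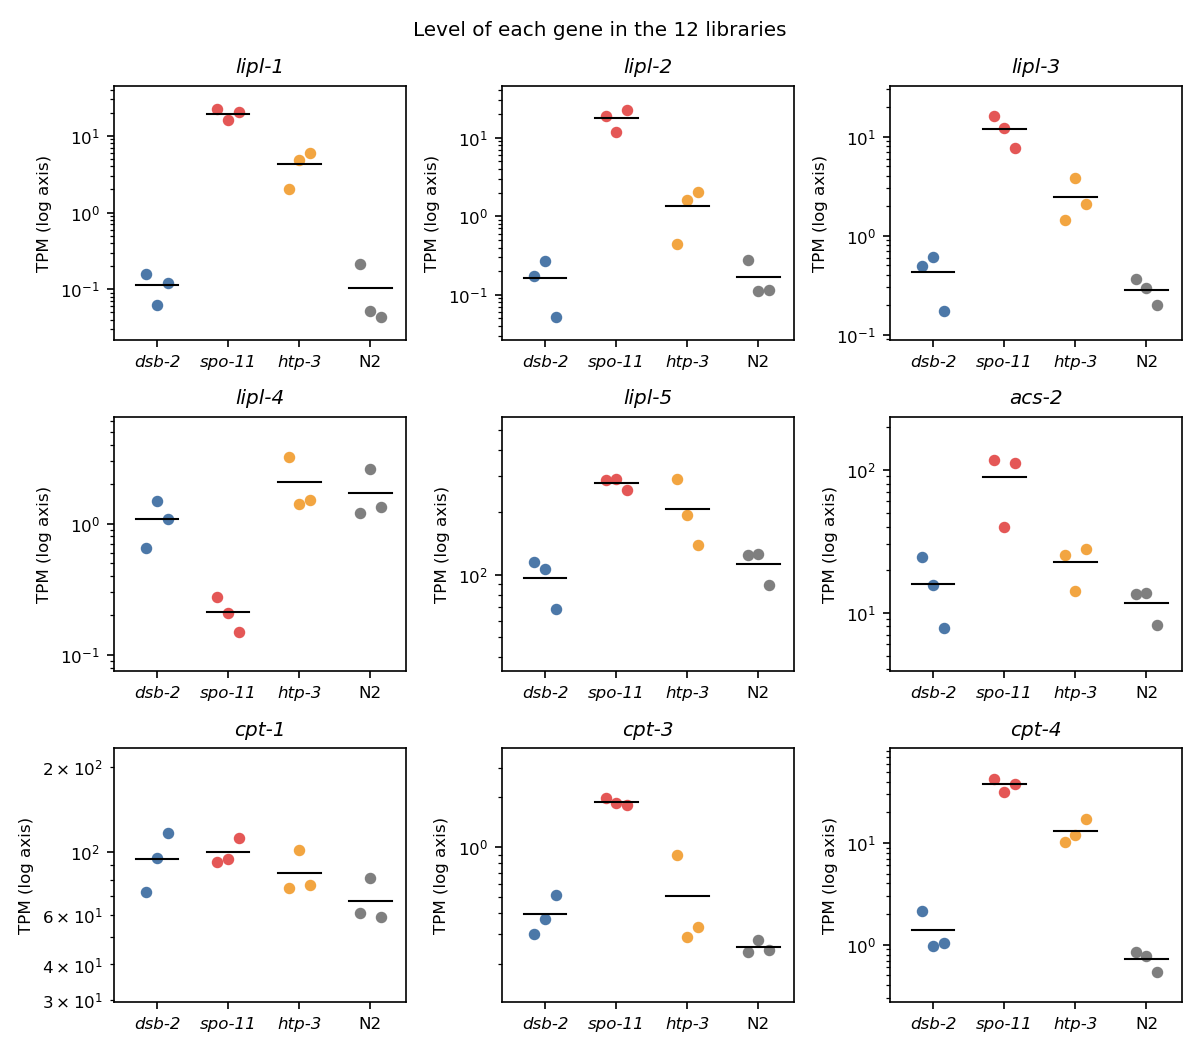
Level of each of the 9 genes in the 12 libraries, in TPM on a log axis whose range differs between panels; each point is a library and each bar is the mean of a strain. The 3 spo-11 points of lipl-1, lipl-2, lipl-3, cpt-3 and cpt-4 lie above all other libraries, and those of lipl-4 lie below all others.

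The lipase genes lipl-1, lipl-2 and lipl-3 were close to their floor in dsb-2 and N2, high in spo-11 and at intermediate levels in htp-3. lipl-1 and lipl-3 encode lysosomal lipases known in C. elegans for their induction in fasting. lipl-1 had 0.159, 0.0620 and 0.122 TPM in the dsb-2 libraries, 22.4, 16 and 20.5 TPM in spo-11, 2.04, 4.87 and 5.99 TPM in htp-3, and 0.210, 0.0522 and 0.0428 TPM in N2. Every spo-11 library was above every htp-3 library, and every htp-3 library was above all of dsb-2 and N2, which overlapped each other. The log2 fold change against N2 was 4.22 ± 0.25 in spo-11 (limma adjusted p = 4.37e-09) and 2.18 ± 0.25 in htp-3 (adjusted p = 1.66e-05). The mean TPM was 193-fold that of N2 in spo-11 and 42.3-fold in htp-3. The N2 level rests on 13 reads over 3 libraries, so the ratio of read rates had a 95% exact interval of 113 to 364 for spo-11, and of 24.3 to 79.3 for htp-3, for counting error only.

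lipl-2, a gene of the same lipase family, had 0.172, 0.268 and 0.0525 TPM in dsb-2, 18.8, 12 and 22.8 TPM in spo-11, 0.445, 1.62 and 2.03 TPM in htp-3, and 0.277, 0.113 and 0.115 TPM in N2. The htp-3 libraries were spread, with replicate 1 less than 0.2 TPM above the highest N2 library. The log2 fold change was 3.97 ± 0.26 in spo-11 (limma adjusted p = 7.04e-09) and 0.95 ± 0.26 in htp-3 (adjusted p = 0.00662), where the call ended with a pseudocount of 5 (0.29, adjusted p = 0.105). lipl-3 had 0.493, 0.607 and 0.175 TPM in dsb-2, 16.2, 12.2 and 7.59 TPM in spo-11, 1.43, 3.86 and 2.09 TPM in htp-3, and 0.361, 0.296 and 0.198 TPM in N2. Its groups ranked as those of lipl-1 did, with dsb-2 and N2 overlapping. The log2 fold change of lipl-3 was 3.28 ± 0.27 in spo-11 (adjusted p = 4.03e-08) and 1.37 ± 0.27 in htp-3 (adjusted p = 0.000715).

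lipl-4 was the only one of the 9 genes called lower in a mutant than in N2. It encodes a lysosomal acid lipase known in C. elegans for its induction in long-lived animals without germline stem cells. lipl-4 had 0.647, 1.49 and 1.09 TPM in dsb-2, 0.278, 0.208 and 0.150 TPM in spo-11, 3.24, 1.42 and 1.52 TPM in htp-3, and 1.2, 2.60 and 1.33 TPM in N2. The 3 spo-11 libraries were below the other 9, while dsb-2, htp-3 and N2 overlapped. In spo-11 the mean was 8.05-fold lower than in N2, on 22 reads in spo-11 and 199 reads in N2, a log2 fold change of -1.12 ± 0.24 (limma adjusted p = 0.000512). Against N2 it was 0.16 ± 0.24 in htp-3 (adjusted p = 0.564), with a 95% interval of -0.35 to 0.67. In the WBcel235 annotation the antisense non-coding gene K04A8.15 shares 120 exon bases with lipl-4, and whether the counting used strand is not given in the sources used here.

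lipl-5 was by far the most abundant of the 5 lipase genes per unit length. It had 115, 107 and 68.5 TPM in dsb-2, 286, 288 and 257 TPM in spo-11, 288, 194 and 139 TPM in htp-3, and 124, 126 and 89.0 TPM in N2. All spo-11 and htp-3 libraries were above all of N2, and dsb-2 overlapped N2. The log2 fold change was 1.3 ± 0.25 in spo-11 (limma adjusted p = 0.000178) and 0.82 ± 0.25 in htp-3 (adjusted p = 0.0103). These values lie 0.50 and 0.55 above the median of all genes. With median-of-ratios scaling neither was called (0.60, adjusted p = 0.0571 in spo-11; 0.45, adjusted p = 0.164 in htp-3). The htp-3 call also ended without htp-3 replicate 1 (0.55, adjusted p = 0.0589) or without N2 replicate 3 (0.66, adjusted p = 0.0503).

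acs-2, which encodes a mitochondrial acyl-CoA synthetase known in C. elegans for its induction in fasting through the nuclear receptor NHR-49, was called higher than N2 in spo-11 and not in htp-3 or dsb-2. It had 24.4, 15.7 and 7.74 TPM in dsb-2, 117, 39.8 and 111 TPM in spo-11, 25.4, 14.2 and 27.9 TPM in htp-3, and 13.4, 13.6 and 8.24 TPM in N2. The 3 spo-11 libraries were above all others although replicate 2 was at 39.8 TPM, and the htp-3 libraries were all above those of N2, replicate 2 by the least. The mean in spo-11 was 7.60-fold that in N2, a log2 fold change of 2.71 ± 0.42 (limma adjusted p = 2.84e-05). In htp-3 the log2 fold change was 0.86 ± 0.42 (adjusted p = 0.0901). That gene was called in htp-3 when only htp-3 and N2 entered the fit (adjusted p = 0.0323), and without htp-3 replicate 2 (1.15, adjusted p = 0.0383).

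Of the carnitine palmitoyltransferase genes, cpt-4 had the largest log2 fold change in spo-11 and cpt-1, the most abundant, the smallest. cpt-4 had 2.16, 0.969 and 1.05 TPM in dsb-2, 42.7, 31.6 and 38.2 TPM in spo-11, 10.2, 12 and 17.2 TPM in htp-3, and 0.840, 0.771 and 0.543 TPM in N2. The 4 strains did not overlap in this gene, dsb-2 included. The log2 fold change was 4.48 ± 0.24 in spo-11 (limma adjusted p = 2.11e-09), 3.01 ± 0.24 in htp-3 (adjusted p = 8.19e-07) and 0.45 ± 0.24 in dsb-2 (adjusted p = 0.526). In mean TPM this was 52.3-fold the N2 level in spo-11 and 18.3-fold in htp-3. Among all genes tested, cpt-4 stood at percentile 98.5 of log2 fold changes in spo-11 and 99.6 in htp-3.

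cpt-3 had 0.300, 0.369 and 0.518 TPM in dsb-2, 1.97, 1.84 and 1.78 TPM in spo-11, 0.898, 0.288 and 0.334 TPM in htp-3, and 0.234, 0.278 and 0.241 TPM in N2. All spo-11 libraries were above the rest, and 1 htp-3 library, replicate 1, stood above the other htp-3 libraries. The log2 fold change was 1.2 ± 0.16 in spo-11 (limma adjusted p = 4.48e-06), 0.25 ± 0.16 in htp-3 (adjusted p = 0.182) and 0.15 ± 0.16 in dsb-2 (adjusted p = 0.803). cpt-1 had 72.0, 95 and 117 TPM in dsb-2, 92.6, 94.8 and 112 TPM in spo-11, 74.4, 102 and 76.4 TPM in htp-3, and 60.9, 81.0 and 58.7 TPM in N2. Only spo-11 lay wholly above N2. Its log2 fold change in spo-11 was 0.58 ± 0.20 (adjusted p = 0.0151), which is 0.22 below the median of all genes, and it turned to -0.12 (adjusted p = 0.565) with median-of-ratios scaling. The call also ended without spo-11 replicate 3 (0.49, adjusted p = 0.0641), without N2 replicate 1 (0.52, adjusted p = 0.0548) or without N2 replicate 3 (0.49, adjusted p = 0.0617). cpt-1 was not called in htp-3 (0.33 ± 0.20, adjusted p = 0.164) or in dsb-2 (0.48 ± 0.20, adjusted p = 0.449).

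**Figure D2:**
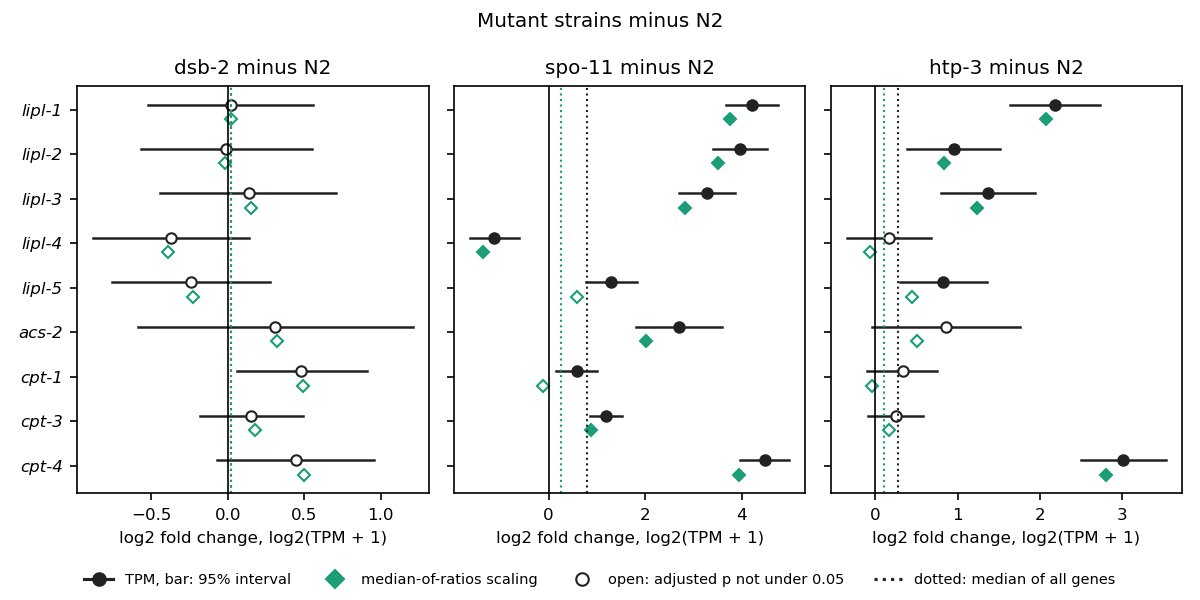
Log2 fold change of each gene against N2 on the log2(TPM + 1) scale, in a panel per mutant with its own axis range; circles are the TPM values with 95% intervals, diamonds the values after median-of-ratios scaling, open symbols those not called, and dotted lines the medians of all genes. In spo-11, cpt-1 moves from 0.58 to -0.12 and lipl-5 from 1.3 to 0.60 with that scaling, while lipl-1, lipl-2, lipl-3, acs-2, cpt-3, cpt-4 and lipl-4 keep their calls.

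In dsb-2 the other 6 genes had log2 fold changes between -0.37 and 0.31. Against N2 the log2 fold change was 0.02 ± 0.25 for lipl-1, -0.01 ± 0.26 for lipl-2 and 0.14 ± 0.27 for lipl-3. lipl-4 was at -0.37 ± 0.24, lipl-5 at -0.24 ± 0.25 and acs-2 at 0.31 ± 0.42. The limma adjusted p of these 6 genes ran from 0.612 for lipl-4 to 0.999 for lipl-2. The widest 95% interval, that of acs-2, ran from -0.59 to 1.21, so 3 libraries against 3 do not exclude changes within that range. For the low genes the reads allow a wide ratio as well: lipl-1 had 12 reads in dsb-2 and 13 in N2, a ratio of read rates of 1.13 with a 95% exact interval of 0.470 to 2.68.

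The mix of transcripts within each family also differed between strains. The summed level of lipl-1 to lipl-5 was 98.5 ± 25.0 TPM in dsb-2, 327 ± 17.9 TPM in spo-11, 217 ± 73.2 TPM in htp-3 and 115 ± 21.2 TPM in N2 (SD, n = 3 each). lipl-5 made up 98.2% of that sum in dsb-2, 84.8% in spo-11, 94.7% in htp-3 and 98.0% in N2. lipl-1, lipl-2 and lipl-3 together held 0.500% to 0.855% of the sum in the dsb-2 libraries, 12.3% to 16.7% in spo-11, 1.32% to 6.73% in htp-3 and 0.359% to 0.672% in N2. The htp-3 libraries varied among themselves in this share: replicate 1 had the lowest level of lipl-1, lipl-2 and lipl-3 and the highest of lipl-5.

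Of the summed level of cpt-1, cpt-3 and cpt-4, cpt-4 held 1.6% ± 1.13 in dsb-2, 27% ± 3.61 in spo-11, 13.6% ± 4.19 in htp-3 and 1.07% ± 0.248 in N2 (SD, n = 3 each). The sum itself was 96.5 ± 22.1 TPM in dsb-2, 139 ± 11.9 TPM in spo-11, 97.9 ± 14.9 TPM in htp-3 and 67.9 ± 12.4 TPM in N2. cpt-1 remained the major transcript in every library, with at least 67.4% of the sum. These shares are ratios within a library and do not depend on the scaling between libraries.

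**Figure D3:**
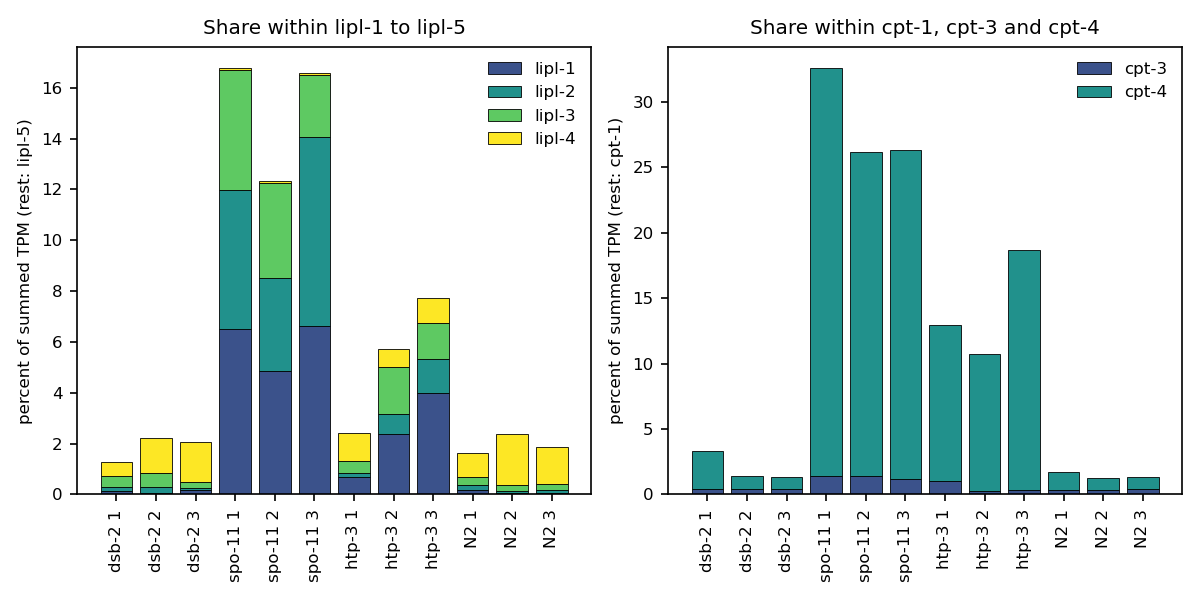
Share of the summed TPM taken by each minor gene in each of the 12 libraries, as stacked bars in percent, for lipl-1 to lipl-5 (left; the rest is lipl-5) and for cpt-1, cpt-3 and cpt-4 (right; the rest is cpt-1). lipl-1, lipl-2 and lipl-3 together reach 12.3% to 16.7% in spo-11 and stay under 1% in dsb-2 and N2, and cpt-4 is above 10% in every spo-11 and htp-3 library.

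The mutant strains were also tested directly against each other, and counts among the 9 are given beside the shares of all genes, many of which were called too. In spo-11 against dsb-2, 7 of the 9 genes were called higher and lipl-4 lower, against 55.9% and 23.8% of all genes tested. The log2 fold changes of the called genes ran from 1.04 for cpt-3 to 4.20 for lipl-1, and lipl-4 was at -0.76 ± 0.24 (limma adjusted p = 0.00887). cpt-1 was at 0.10 ± 0.20 (adjusted p = 0.660) and turned to a called -0.61 (adjusted p = 0.00826) with median-of-ratios scaling. In htp-3 against dsb-2, 5 genes were called higher and 0 lower, against 41.6% and 23% of all genes. Those called were lipl-1 (2.17 ± 0.25), lipl-2 (0.96 ± 0.26), lipl-3 (1.23 ± 0.27), lipl-5 (1.06 ± 0.25) and cpt-4 (2.57 ± 0.24). With a pseudocount of 5 lipl-2 was not called (0.29, adjusted p = 0.0965). No gene of the 9 was lower in htp-3 than in dsb-2 at an unadjusted limma p under 0.05 or by limma-voom, while median-of-ratios scaling called cpt-1 lower (-0.53, adjusted p = 0.0242). lipl-4 missed the threshold (0.53 ± 0.24, adjusted p = 0.0630) and was called without dsb-2 replicate 2 (0.67, adjusted p = 0.0396), without htp-3 replicate 2 (0.68, adjusted p = 0.0336) or on RPKM (0.55, adjusted p = 0.0343).

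In htp-3 against spo-11, 6 genes were called lower and lipl-4 higher, against 38.6% lower and 8.10% higher of all genes. lipl-2 was at -3.02 ± 0.26 (limma adjusted p = 1.74e-07), a mean 13.1-fold lower in htp-3, and lipl-1 at -2.03 ± 0.25 (adjusted p = 7.84e-06). lipl-3 was at -1.92 ± 0.27, acs-2 at -1.85 ± 0.42, cpt-4 at -1.47 ± 0.24 and cpt-3 at -0.95 ± 0.16, with adjusted p from 2.60e-05 for lipl-3 to 0.00195 for acs-2. lipl-4 was higher in htp-3 by 1.29 ± 0.24 (adjusted p = 0.000363), at percentile 98.8 of all genes in that comparison. The median of all genes was -0.32 there, and -0.02 with median-of-ratios scaling, under which the same 7 calls were made. cpt-1 was not called (-0.25 ± 0.20, adjusted p = 0.330). lipl-5 was not called either (-0.48 ± 0.25, adjusted p = 0.125), but it was with the replicate number as a block (adjusted p = 0.0417) and without htp-3 replicate 1 (-0.75, adjusted p = 0.0158).

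**Figure D4:**
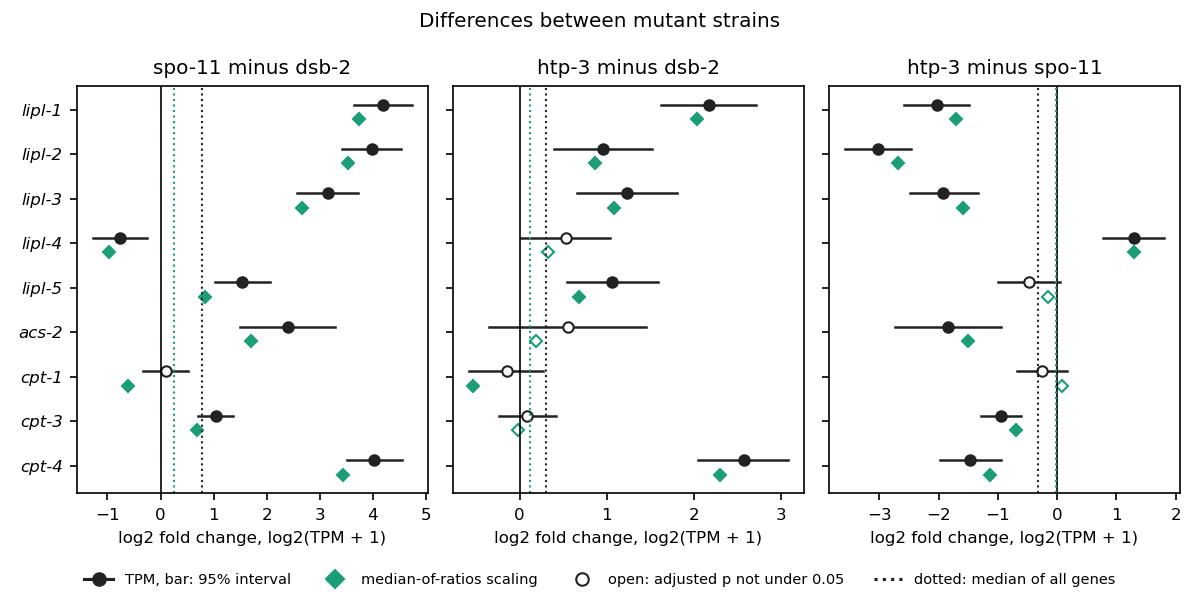
Log2 fold change of each gene between mutant strains on the log2(TPM + 1) scale, drawn as for the comparisons with N2. In htp-3 minus spo-11, lipl-4 at 1.29 lies on the other side of 0 from lipl-1, lipl-2, lipl-3, acs-2, cpt-3 and cpt-4, and cpt-1 in spo-11 minus dsb-2 moves from 0.10 to -0.61 with median-of-ratios scaling.

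Ranked by mean level, lipl-1, lipl-3 and cpt-4 had the same order, spo-11, htp-3, dsb-2, N2, in which both upper steps were called and dsb-2 and N2 were not called apart. lipl-2 differed from it only in that N2 stood above dsb-2, again not called apart. For lipl-5 the order was spo-11, htp-3, N2, dsb-2, with a called step only between htp-3 and N2. For acs-2 and cpt-3 the only called step was from spo-11 to htp-3, above dsb-2 and N2. For cpt-1 no step in the order spo-11, dsb-2, htp-3, N2 was called. lipl-4 had the order htp-3, N2, dsb-2, spo-11, with the called step at the low end.

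Across the 12 libraries, which share their strains, the log2(TPM + 1) values of lipl-1 had a Pearson r of 0.98 with cpt-4, 0.97 with lipl-3 and 0.96 with lipl-2. lipl-4 had a negative r with each of the other 8 genes, between -0.76 with lipl-2 and -0.30 with lipl-5. cpt-1 had r no higher than 0.48 with any other. Among 8993 genes with a mean of at least 5 TPM, those with the pattern most like lipl-1 were T20B3.1 (r = 0.988) and fbxa-59 (r = 0.987), and most like lipl-2 were ttr-29 (r = 0.992) and Y75B8A.23 (r = 0.990). For lipl-3 they were R11A5.3 (r = 0.986) and F40H7.12 (r = 0.982), for lipl-4 C06G3.8 (r = 0.894) and F23C8.5 (r = 0.888), and for lipl-5 asp-4 (r = 0.964) and T10B5.7 (r = 0.963). For acs-2 they were T27F6.8 (r = 0.968) and sodh-1 (r = 0.962), for cpt-1 T08G11.1 (r = 0.977) and let-363 (r = 0.971), for cpt-3 dhp-2 (r = 0.972) and ilys-3 (r = 0.965), and for cpt-4 nlp-11 (r = 0.992) and gst-20 (r = 0.990). ttr-29 followed lipl-2 closely in level too, with a mean of 0.264 TPM in dsb-2, 19.9 TPM in spo-11, 1.35 TPM in htp-3 and 0.226 TPM in N2.

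The other genes of fat breakdown moved in both directions. Counts in the lists that follow are to be read beside the shares of all 13650 genes tested. These were 0.190% higher and 0.0733% lower in dsb-2, 55.6% and 22.1% in spo-11, and 39.5% and 19.7% in htp-3. With median-of-ratios scaling, 6304 of these 13650 genes were higher and 5181 lower in spo-11, and 4381 and 4555 in htp-3. Some of the genes named from the lists passed the minimum of 1 TPM only through strains where they were high. For fil-1 and acdh-5 these were spo-11 libraries alone, and for acs-10 and acs-18 spo-11 and htp-3 libraries. Over 8 lists of related genes, limma called 0 of the tested genes in dsb-2 against N2, with 7 higher and 5 lower at an unadjusted p under 0.05 and 0 by limma-voom. Of the other lipase and lipid droplet genes, 6 of 9 were tested, and 3 were higher and 2 lower in spo-11 and 2 and 2 in htp-3, against 2 and 3 in spo-11 and 2 and 2 in htp-3 with median-of-ratios scaling. lipl-7, another lipase-like gene, rose in spo-11 (28.6 TPM against 4.95 TPM in N2, log2 fold change 2.39 ± 0.28) and in htp-3 (13.3 TPM, 1.35 ± 0.28). fil-1, a fasting-induced lipase gene, rose in spo-11 (4.80 TPM against 0.105 TPM in N2, 2.39 ± 0.14) and in htp-3 (0.677 TPM, 0.60 ± 0.14). lid-1, which encodes a cofactor of the adipose triglyceride lipase ATGL-1, fell by 0.73 in spo-11 and by 0.71 in htp-3 on the log2 scale.

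Of the other acyl-CoA synthetase genes, 12 of 19 tested were higher and 1 lower in spo-11, with a median log2 fold change of 0.96, and 10 higher and 3 lower in htp-3, with a median of 0.53. With median-of-ratios scaling this became 8 higher and 6 lower in spo-11 and 4 and 4 in htp-3. acs-3 had 36.5 TPM in spo-11 where N2 had 0.862 TPM (log2 fold change 4.32 ± 0.22, limma adjusted p = 1.44e-09), acs-10 had 18.8 TPM in spo-11 where N2 had 0.263 TPM (3.92 ± 0.26), and acs-18 had 12.8 TPM in spo-11 where N2 had 0.0885 TPM (3.60 ± 0.25). In htp-3, acs-17 (1.39 ± 0.31) and acs-12 (1.00 ± 0.22) rose, and both also rose in spo-11 (1.79 ± 0.31 and 1.41 ± 0.22). acs-19 fell by 0.70 in htp-3. In spo-11 it was not called (0.19 ± 0.14), but was called lower with median-of-ratios scaling (-0.51). Of the other carnitine acyltransferase genes, cpt-5 rose by 0.83 in spo-11 and 1.13 in htp-3, and cpt-6 by 1.52 in spo-11 and 0.85 in htp-3. With median-of-ratios scaling cpt-5 was not called in spo-11 (0.18). cpt-2, which encodes the transferase of the inner mitochondrial membrane, was not called in spo-11 (-0.10 ± 0.17, adjusted p = 0.611) or htp-3 (-0.40 ± 0.17, adjusted p = 0.0591), and was called lower in both with that scaling (-0.80 and -0.77).

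Genes listed here under mitochondrial beta-oxidation were split. The list holds mainly acdh and ech genes, and where each product acts in the cell, or on which substrate, was not checked. Of 27 tested, 11 were higher and 10 lower in spo-11 (median -0.19, against 0.80 for all genes) and 9 higher and 5 lower in htp-3 (median 0.22, against 0.27 for all genes). With median-of-ratios scaling the split was 6 and 16 in spo-11 and 2 and 10 in htp-3. The acyl-CoA dehydrogenase gene acdh-8 had 45.0 TPM in spo-11 where N2 had 0.650 TPM (log2 fold change 4.78 ± 0.36, limma adjusted p = 1.77e-08), and acdh-5 had 9.40 TPM in spo-11 where N2 had 0.248 TPM (3.0 ± 0.23). ech-7, named as an enoyl-CoA hydratase gene, averaged 60.4 TPM in spo-11 where N2 had 197 TPM (-1.66 ± 0.20, adjusted p = 2.06e-06). In htp-3 ech-9 (2.88 ± 0.44) and ech-1.1 (0.92 ± 0.18) rose, and both also rose in spo-11 (3.11 ± 0.44 and 1.29 ± 0.18). ech-2 fell in both strains (-0.78 in htp-3 and -0.71 in spo-11), and ech-7 was also called lower in htp-3 (-0.59 ± 0.20).

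Of 14 genes of peroxisomal beta-oxidation, 9 were higher and 1 lower in spo-11 and 12 higher and 1 lower in htp-3, against 5 and 1 in spo-11 and 6 and 1 in htp-3 with median-of-ratios scaling. The acyl-CoA oxidase genes acox-1.6 and acox-3 both rose by 1.95 in spo-11, and by 0.91 and 0.58 in htp-3. acox-1.5 rose by 1.79 ± 0.33 in htp-3 and was not called in spo-11 (0.52 ± 0.33). pmp-4, which encodes a peroxisomal membrane transporter, rose by 1.70 in spo-11 and 1.18 in htp-3, and maoc-1 by 0.82 and 1.03. With median-of-ratios scaling acox-3 was not called in htp-3 (0.24), nor maoc-1 in spo-11 (0.13). Of 9 lipid-binding protein genes, 4 were higher and 3 lower in spo-11 and 5 and 1 in htp-3, against 4 and 5 and 4 and 1 with median-of-ratios scaling. lbp-5 rose by 1.87 in spo-11 and 2.30 in htp-3, and lbp-7 by 2.19 in spo-11 and 2.30 in htp-3. lbp-1 rose by 2.33 in spo-11 and 1.15 in htp-3, while lbp-9 fell in both (log2 fold change -1.19 in spo-11 and -1.08 in htp-3).

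Among 13 regulators of lipolysis and fatty acid oxidation, 9 were higher in spo-11 and 6 in htp-3 and limma called 0 lower in either. At an unadjusted p under 0.05, 0 were lower in spo-11 and 1 in htp-3, and limma-voom called 1 lower in each. With median-of-ratios scaling the split was 7 higher and 4 lower in spo-11 and 5 and 4 in htp-3. hlh-30, the worm TFEB homolog that activates lysosomal genes, had 46.2 TPM in spo-11 where N2 had 8.39 TPM (log2 fold change 2.34 ± 0.21, limma adjusted p = 1.01e-07), and 23.8 TPM in htp-3 (1.42 ± 0.21, adjusted p = 9.56e-05). pha-4, a FoxA factor gene, rose by 1.81 in spo-11 and 1.29 in htp-3, and the nuclear receptor gene nhr-80 by 1.86 and 1.17. sbp-1, the SREBP homolog, rose by 1.85 in spo-11 and 0.74 in htp-3, where it was not called with median-of-ratios scaling (0.42). Chosen after their values were seen, mxl-3, whose product represses lysosomal lipase genes in fed C. elegans, rose by 1.41 ± 0.26 in spo-11 and 0.94 ± 0.26 in htp-3. nhr-49, likewise chosen, was not called (0.35 ± 0.16, adjusted p = 0.0540 in spo-11; -0.09 ± 0.16, adjusted p = 0.613 in htp-3), and was called lower in both with median-of-ratios scaling (-0.35 and -0.46).

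Of 31 lysosome membrane and V-ATPase genes, V-ATPase being the proton pump that acidifies lysosomes, 16 were higher and 4 lower in spo-11 and 21 higher and 4 lower in htp-3. Of all genes tested, 55.6% were higher and 22.1% lower in spo-11, and 39.5% and 19.7% in htp-3. With median-of-ratios scaling the split of the 31 was 6 and 11 in spo-11 and 16 and 7 in htp-3. ppt-1, which encodes a lysosomal palmitoyl-protein thioesterase, had 14.9 TPM in spo-11 where N2 had 1.1 TPM (log2 fold change 2.88 ± 0.23, limma adjusted p = 2.81e-08). The V-ATPase subunit gene vha-5 rose by 1.88 in spo-11 and 1.85 in htp-3, vha-15 by 1.16 in spo-11, and vha-20 by 1.38 and vha-6 by 1.71 in htp-3. The mean of vha-15 was also above N2 in htp-3 (193 TPM against 81.6 TPM), and that of vha-20 in spo-11 (168 TPM against 80.5 TPM). vha-6 was not called in spo-11 (0.18 ± 0.20).

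**Figure D5:**
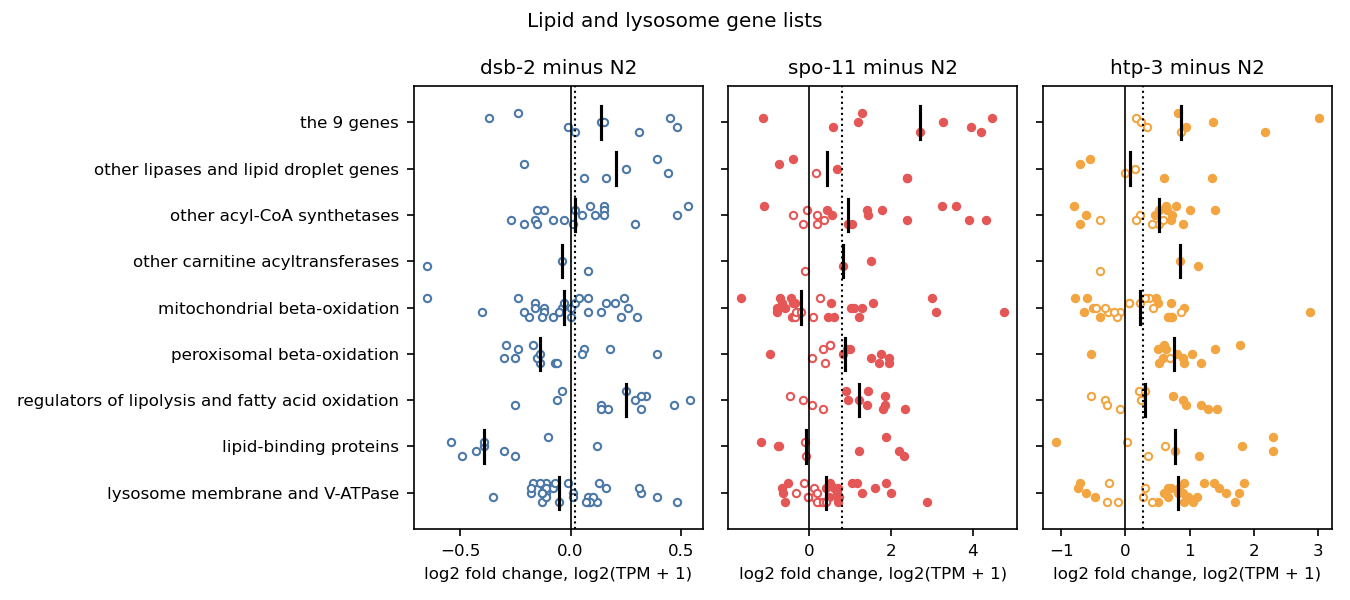
Log2 fold change against N2 on the log2(TPM + 1) scale of every tested gene in the 9-gene group and in 8 lists of related genes, in a panel per mutant with its own axis range; filled points were called, bars are list medians and dotted lines the medians of all genes. No point is filled for dsb-2, and in spo-11 the bar of mitochondrial beta-oxidation lies at -0.19 while that of the 9 genes lies at 2.71. Both the 9 genes and the lists were picked with earlier results of these data known.

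Markers of several tissues were also called in spo-11 and htp-3, to be read beside the 55.6% higher and 22.1% lower of all genes in spo-11 and the 39.5% and 19.7% in htp-3. With median-of-ratios scaling the numbers for all genes were 6304 higher and 5181 lower of 13650 in spo-11. In htp-3 they were 4381 and 4555. In such whole-animal RNA, fewer cells of a type and less RNA per cell cannot be told apart. Of 12 intestine markers 6 were higher and 1 lower in spo-11 and 10 higher and 0 lower in htp-3, against 5 and 2 in spo-11 and 8 and 0 in htp-3 with median-of-ratios scaling. The median log2 fold change of these markers in spo-11, 0.80, was that of all genes, and in htp-3 it was 1.29, against 0.27 for all genes. Their summed level was 1834 to 2320 TPM in dsb-2 libraries, 5230 to 6866 TPM in spo-11, 4765 to 7541 TPM in htp-3 and 1755 to 2615 TPM in N2. Most of it was asp-1, and elt-2, the intestinal GATA factor gene, averaged 4.75 TPM in dsb-2, 11.9 TPM in spo-11, 10.9 TPM in htp-3 and 5.72 TPM in N2. Of 16 germline and oocyte markers 14 were lower and 0 higher in spo-11, and the same numbers in htp-3, and with median-of-ratios scaling 15 were lower and 0 higher in each. They summed to 8952 to 12686 TPM in dsb-2, 2829 to 3328 TPM in spo-11, 2577 to 5486 TPM in htp-3 and 7425 to 7830 TPM in N2. The 8 sperm markers summed to 2.10 to 6.13 TPM in dsb-2, 275 to 515 TPM in spo-11, 9.28 to 29.3 TPM in htp-3 and 1.73 to 12 TPM in N2, and 8 were higher in spo-11 and 4 in htp-3, or 8 and 3 with median-of-ratios scaling. The sperm markers spe-9, spe-26, spe-38 and fer-1 reached 1 TPM only in spo-11 libraries, so they entered the test only through the strain where they were high. No sperm marker was lower and no germline marker higher in either strain at an unadjusted limma p under 0.05 or by limma-voom.

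Of 7 body-wall muscle markers tested, 6 were higher in spo-11 and 7 in htp-3. Of 8 neuron markers 8 were higher in spo-11 and 6 in htp-3, and of 2 coelomocyte markers 2 in each. Of 6 hypodermis markers tested, 4 were higher and 1 lower in spo-11 and 3 and 2 in htp-3. With median-of-ratios scaling the muscle markers higher numbered 5 in spo-11 and 5 in htp-3, the neuron markers 7 and 6 and the coelomocyte markers 2 and 1, while the hypodermis split was 1 and 2 in spo-11 and 3 and 2 in htp-3. Summed levels of the muscle list were 1428 to 2014 TPM in dsb-2, 3336 to 4718 TPM in spo-11, 2379 to 3515 TPM in htp-3 and 1139 to 1529 TPM in N2. The hypodermis list summed to 2841 to 3832 TPM in dsb-2, 5403 to 6731 TPM in spo-11, 9722 to 16317 TPM in htp-3 and 3209 to 3751 TPM in N2. Most of that sum was col-140 and col-19, which averaged 9842 and 3282 TPM in htp-3. In htp-3 lin-26 (30.6 TPM against 52.8 TPM in N2) and nhr-23 (12.2 TPM against 20.2 TPM in N2) went the other way. The neuron list summed to 320 to 340 TPM in dsb-2, 674 to 864 TPM in spo-11, 386 to 435 TPM in htp-3 and 237 to 308 TPM in N2, most of it snb-1. No marker of any list was at 0 in all 3 libraries of a strain. Limma called 0 of 59 markers in dsb-2, with 8 higher and 1 lower at an unadjusted p under 0.05 and 0 by limma-voom. The part of these tissue markers in the changes of the 9 genes was not tested.

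By position, 7 of the 9 genes lie on chromosome V, and none lies next to another (coordinates of the authors' tables, WBcel235, counted from 1). On that chromosome lipl-5 runs from 385713 to 388090 on the plus strand and lipl-3 from 521702 to 524218 on the minus strand, 133611 bases apart, the closest pair. cpt-4 runs from 5023706 to 5027723 (minus), lipl-4 from 6550171 to 6551817 (plus), lipl-2 from 9791567 to 9793234 (plus), lipl-1 from 12919952 to 12921692 (plus) and acs-2 from 15567394 to 15569889 (plus). cpt-1 lies on chromosome II from 12788252 to 12796452 (minus) and cpt-3 on chromosome III from 2082819 to 2088248 (plus). The span of cpt-4 is the same in the annotation used here, and the ends of the other 8 differ. In that annotation lipl-3 shares 23 exon bases with srw-107 on the same strand, and no overlap between the 9 genes was found.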

How the data were processed

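Each of the 12 libraries has a table of 20222 genes with TPM and RPKM values that the authors deposited, per the file headers. RPKM is repeated there, value for value, as an expression value. Per the submitters' processing notes the build was WBcel235; aligner, counter and strandedness: not given in the sources used here. The 9 genes and the gene lists were chosen with earlier results of these data known. Counts were not part of the tables. The steps between low RPKM values gave the depth, and reads were rebuilt for 18042 genes valued in 4 or more libraries, whole within 0.05 reads. Where the annotated exon length did not give whole reads, the length that did was searched for (13873 genes), so wholeness there is by construction.

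All 12 libraries entered 1 fit in limma 3.58.1 (R 4.3.3) on log2(TPM + 1), with a trend of variance on mean, for 13650 genes that reached 1 TPM in 3 or more libraries. P-values were Benjamini-Hochberg adjusted over these genes. The 95% intervals of single fold changes are not adjusted, and p-values measure the spread between these libraries. The procedure was tested on simulated data in which few genes changed between dsb-2 and N2. That setting does not cover changes as wide as those in spo-11 and htp-3. In any list of related genes, the 3 with the smallest p in each comparison with N2 could be named, and similar genes were the 2 with the highest r.

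Alternatives were median-of-ratios scaling, pseudocounts of 0.1 and 5, a minimum of 5 TPM or none, a fit of the compared strains alone, a replicate block, leaving out each library, RPKM, and limma-voom on rebuilt reads. Deviations from strain means were correlated across genes between same-numbered libraries, with r = 0.12, 0.44 and 0.23 for spo-11 and htp-3. For dsb-2 and N2 r was 0.35, 0.39 and 0.07, and for spo-11 and N2 it was 0.14, 0.04 and 0.34. The remaining pairs of strains had r of both signs. These values do not settle whether replicate numbers pair the samples, and the main fit used no block. Libraries of a strain differed beyond sampling noise (chi-square per degree of freedom at least 52.5). Positions come from the authors' tables, and overlaps from the WBcel235 annotation release 115.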

Additional observations from a re-analysis of the deposited data

How the results depend on the processing

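Of 798 recomputed fold changes of single genes, 761 kept their direction and side of the threshold, 9 newly passed the threshold, 10 no longer passed it and 18 changed sign. Of those 18, 2 had a call on a side, cpt-1 in spo-11 with median-of-ratios scaling at -0.12 against N2 and -0.61 against dsb-2, and 16 were called on neither side. With that scaling these were lipl-4 (-0.06) and cpt-1 (-0.04) in htp-3 against N2, cpt-3 in htp-3 against dsb-2 (-0.02) and cpt-1 in htp-3 against spo-11 (0.08). On RPKM they were lipl-1 in dsb-2 against N2 (-0.00) and cpt-1 in htp-3 against dsb-2 (0.02). With a library left out in turn, values in dsb-2 against N2 ran from -0.02 to 0.09 for lipl-1, with 3 below 0, from -0.07 to 0.06 for lipl-2, with 2 above 0, and from -0.05 (without dsb-2 replicate 1) to 0.72 for acs-2. lipl-4 in htp-3 against N2 ran from -0.10 (without htp-3 replicate 1) to 0.39, and cpt-1 in spo-11 against dsb-2 from -0.08 (without dsb-2 replicate 1) to 0.26. In htp-3 against dsb-2, cpt-1 ran from -0.33 to 0.01 (without dsb-2 replicate 3) and cpt-3 from -0.09 (without htp-3 replicate 1) to 0.19. With median-of-ratios scaling, members called lower numbered 2 in spo-11 against dsb-2 and 1 in htp-3 against dsb-2. A pseudocount of 5 left 0 lower in spo-11 against dsb-2 (lipl-4 at -0.22, adjusted p = 0.0561). A minimum of 5 TPM tests neither lipl-4 nor cpt-3, and so gave 0 lower in spo-11 against N2 and against dsb-2 and 0 higher in htp-3 against spo-11. With each library left out in turn, members called higher ran from 7 to 8 for spo-11 against N2, from 4 to 6 for htp-3 against N2 and from 5 to 6 in htp-3 against dsb-2, and those lower from 6 to 7 in htp-3 against spo-11. The replicate number as a block gave 6 higher in htp-3 against N2, adding acs-2 (0.86, adjusted p = 0.00852), and 7 lower in htp-3 against spo-11, adding lipl-5, and it changed no other call. The replicate numbers are not shown to pair the samples in any comparison. Depth limits lipl-1 and lipl-2 most in dsb-2 and N2, where single libraries held 2 to 11 reads.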
